A study of Mus musculus and Rattus norvegicus with 24 samples.

Results

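The genes described here are 37 members of the glutathione system: 8 genes of its synthesis, reduction and turnover, 5 peroxidases, 17 soluble and 3 membrane-bound transferases and 4 glutaredoxins. They were taken by gene symbol from the whole series, and all 37 were found among the 54532 genes of the mouse table. Of these, 36 had enough counts to be tested among 15535 mouse genes, and Mgst2 did not, with 0 to 0.704 CPM (counts scaled to library size) in the 18 hearts. By the same symbols, 36 members, all but Gstp2, were found among the 17301 genes measured in rat, and 31 were tested among 10571 genes. The rat genes Ggt5, Ggt7, Gsta3, Gstm5 and Gstt3 were not tested, since they did not reach 1 FPKM (fragments scaled to gene length and library size) in 3 of the 6 libraries.

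The series holds RNA sequencing of 18 mouse hearts, 3 in each of 6 groups, and of 6 NRVM cultures (ventricular heart muscle cells of newborn rats). The hearts came from ctrl and cKO mice, where cKO is taken, from titles and design text, to mean a conditional loss of the transcription factor ATF4. For each genotype there are sham-operated hearts and hearts under transverse aortic constriction (TAC), a narrowing of the aorta that loads the left ventricle, collected at 3 d and at 7 d. The rat cells were kept in serum-free medium and infected with adenovirus carrying GFP (adGFP, n = 3) or ATF4 (adATF4, n = 3), after culture with bromodeoxyuridine, a compound used against dividing cells. The driver of the knockout, the strain, the age and the sex of the mice do not appear in the labels. A further label on the cKO hearts names an overexpression of ATF4, which goes against their titles. Atf4 itself stood at 20.99 to 31.3 CPM in the 9 cKO hearts and at 34.3 to 91.0 CPM in the 9 ctrl hearts. The labels do not say whether the 3 libraries of a group came from separate animals or cultures, and each mouse library is called a heart for short. Mouse libraries of a group differed by more than counting noise alone, with a chi-square per degree of freedom of 7.09 to 147 between pairs. Spread between animals and spread from library preparation cannot be told apart by this value. The spread behind each p-value may therefore be technical.

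Glutathione is a tripeptide of glutamate, cysteine and glycine. Glutamate-cysteine ligase and glutathione synthetase build it, peroxidases spend it on hydrogen peroxide and lipid hydroperoxides, and glutathione reductase returns the oxidised form at the cost of NADPH. Transferases join it to reactive compounds such as the aldehydes of oxidised lipids, and glutaredoxins use it to reduce proteins or to handle iron-sulfur clusters. ATF4 is known for raising genes of amino acid supply, cysteine among them, when protein synthesis is under stress. The factor NRF2 is the textbook regulator of many transferases and of the ligase.

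Mouse libraries held 15106975 to 18112798 counts. All 6 cardiomyocyte markers were detected in every group, with a summed level of 34198 to 69118 CPM over the 18 hearts, and adipocyte markers stayed at 0 to 0.818 CPM. Of the 18 libraries, 3 stood apart in a principal component analysis: replicate 3 of ctrl TAC 3 d, and replicate 2 of both cKO TAC groups. Fibroblast markers summed to 1953 to 10867 CPM in ctrl TAC 3 d, with the highest value in replicate 3, against 1011 to 1104 CPM in cKO TAC 3 d and 661 to 728 CPM in ctrl sham. In whole hearts, fewer cells of a type and less RNA per cell cannot be told apart.

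Measured per kilobase of gene length in ctrl sham hearts, the most abundant members were Gpx4 at 228 CPM per kilobase, Mgst3 at 208, Gstm1 at 109 and Gstp1 at 93.5. Gpx4 encodes the peroxidase that reduces lipid hydroperoxides in membranes, and Mgst3 a membrane-bound transferase. Per library and not scaled by length, ctrl sham hearts held 393, 417 and 368 CPM of Gpx4, and 239, 226 and 218 CPM of Mgst3. They held 170.4, 153 and 157 CPM of Gstm1, and 77.8, 69.2 and 65.3 CPM of Gstp1. The ligase subunits stood far lower per kilobase, Gclc at 3.97 and Gclm at 4.47. Some of these genes share sequence with copies elsewhere, and the counting is not described, so their counts are uncertain. Among 50-base windows, 34.7% of those of Gpx4 also occurred in Gpx4-ps2, 33.7% of those of Gstp1 in Gstp2, 49.1% of those of Gstp2 in Gstp1, 14.7% of those of Glrx3 in Gm12669 and 14.1% of those of Gstm1 in Gstm2-ps1. Several members overlap a gene on the opposite strand, among them Gss and Ggt7 with Acss2, Oplah with Exosc4, Gstz1 with Pomt2, Gsta3 with Gm28836 and Gstm5 with 4933431E20Rik, and the labels do not state a strand setting.

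In sham hearts no member was called between cKO and ctrl. The test, here and for all mouse comparisons, was edgeR's quasi-likelihood test with Benjamini-Hochberg adjustment over all genes tested, and a gene was called at an adjusted p under 0.05. Over all tested genes 0.0193% were called, 0.00644% higher and 0.0129% lower. Among members, 1 had an unadjusted p under 0.05, and DESeq2 called 0 members. Library values did not overlap for 2 members that were higher and 3 that were lower, beside 14% of all genes. Gclc, the catalytic subunit of glutamate-cysteine ligase, stood at 15.04, 14.86 and 14.98 CPM in ctrl and at 15.7, 14.4 and 16.8 CPM in cKO. Its modifier subunit Gclm stood at 28.5, 25.1 and 30.7 CPM in ctrl and at 31.1, 31.7 and 28.7 CPM in cKO. The groups overlapped for both. Glutathione reductase (Gsr) differed by a log2 fold change of -0.11 ± 0.11 (SE, n = 3) and glutathione synthetase (Gss) by 0.22 ± 0.18. Gpx3 (0.17 ± 0.49) and Gpx4 (0.07 ± 0.11) differed by less than their errors. The peroxidase Gpx1 was the member with the unadjusted p under 0.05, at 59.1, 66.7 and 51.9 CPM in ctrl and 81.1, 74.0 and 76.6 CPM in cKO (log2 fold change 0.38 ± 0.18, edgeR adjusted p = 0.999).

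After 3 days of TAC several transferases were higher in cKO than in ctrl hearts. In cKO against ctrl, 15 of the 36 tested members were higher and 1 was lower, which is 44.4% of them, beside 17.1% of all genes tested. By direction, 7.73% of all genes were higher and 9.36% lower. The median log2 fold change was 0.34 over the members and 0.02 over all genes. Transferases made up 9 of the 16 calls, near their share of the tested members, and none of Gclc, Gclm, Gss and Gsr was called. By family, 47.1% of the 17 soluble and 50% of the 2 tested membrane-bound transferases were called. The shares were 75% of the 4 glutaredoxins, 40% of the 5 peroxidases and 25% of the 8 genes of synthesis, reduction and turnover. Library values did not overlap between the groups for 17 members that were higher and 2 that were lower, beside 30.1% of all genes.

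Among the transferases, 8 of 17 soluble genes were higher and none lower, and the mu class, named Gstm, gave 5 of them. Gstm1 stood at 79.5, 88.8 and 40.5 CPM in ctrl TAC 3 d hearts and at 164, 213 and 122 CPM in cKO TAC 3 d hearts. Every cKO library was above every ctrl library (log2 fold change 1.26 ± 0.23, n = 3, edgeR adjusted p = 0.00324). Gstm7 stood at 18.9, 21.8 and 12.0 CPM in ctrl and at 38.5, 43.3 and 27.1 CPM in cKO, again with no overlap (1.05 ± 0.22, edgeR adjusted p = 0.00563). Gstm2, Gstm5 and the sparse Gstm6 were higher by 0.77 ± 0.18, 0.46 ± 0.10 and 1.65 ± 0.41, and the 1 remaining mu gene was not called. The 6 mu genes lie beside each other on chromosome 3, in chr3:107895821-108044894 of the deposited positions (GRCm38; the positions of 35 of the 37 members equal those of GENCODE M21). The alpha-class gene Gsta3 had the widest gap: 1.88, 2.78 and 0.813 CPM in ctrl against 14.5, 9.76 and 8.21 CPM in cKO. Its log2 fold change was 2.58 ± 0.36 (n = 3, edgeR adjusted p = 0.000809). Gstk1, the kappa-class enzyme of mitochondria and peroxisomes, stood at 33.4, 40.5 and 15.6 CPM in ctrl and at 76.2, 95.4 and 59.0 CPM in cKO (1.37 ± 0.28, edgeR adjusted p = 0.00569). The theta-class gene Gstt1 (0.53 ± 0.17) and the membrane-bound Mgst1 (0.90 ± 0.30) were also higher.

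The peroxidases went both ways. Gpx4 was higher in cKO at TAC 3 d, at 353, 418 and 349 CPM in ctrl and 535, 565 and 459.6 CPM in cKO (0.48 ± 0.12, n = 3, edgeR adjusted p = 0.012). Gpx7, a peroxidase of the endoplasmic reticulum, was the 1 member called lower: 12.5, 12.0 and 21.8 CPM in ctrl against 7.67, 8.11 and 7.43 CPM in cKO (-0.998 ± 0.21, edgeR adjusted p = 0.00563). Gpx1 did not separate the groups, with 91.6, 80.9 and 138 CPM in ctrl and 109, 127 and 85.2 CPM in cKO. Gpx3, the secreted plasma peroxidase, stood at 256, 214 and 1084 CPM in ctrl and at 218, 353 and 172 CPM in cKO. The library at 1084 CPM is ctrl TAC 3 d replicate 3, the one with the most fibroblast marker RNA, and the difference of -1.06 ± 0.49 was not called (edgeR adjusted p = 0.139).

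In synthesis and turnover, 2 of 8 members were higher. Ggt5, of the family that cleaves or transfers the gamma-glutamyl group, stood at 6.59, 6.98 and 6.31 CPM in ctrl TAC 3 d and at 14.3, 12.9 and 9.62 CPM in cKO TAC 3 d (0.89 ± 0.14, n = 3, edgeR adjusted p = 0.00156). Oplah, the oxoprolinase that returns glutamate from the end of the turnover cycle, was higher by 0.47 ± 0.12, and its groups overlapped. Gclc (0.10 ± 0.13), Gclm (-0.04 ± 0.15), Gss (-0.11 ± 0.17) and Gsr (0.01 ± 0.11) were not called. Of the glutaredoxins, Glrx2 (0.33 ± 0.11), Glrx3 (0.35 ± 0.09) and Glrx5 (0.51 ± 0.16) were higher and the 1 remaining was not called. Glrx2 and Glrx5 are mitochondrial, and Glrx3 and Glrx5 handle iron-sulfur clusters.

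**Figure D1:**
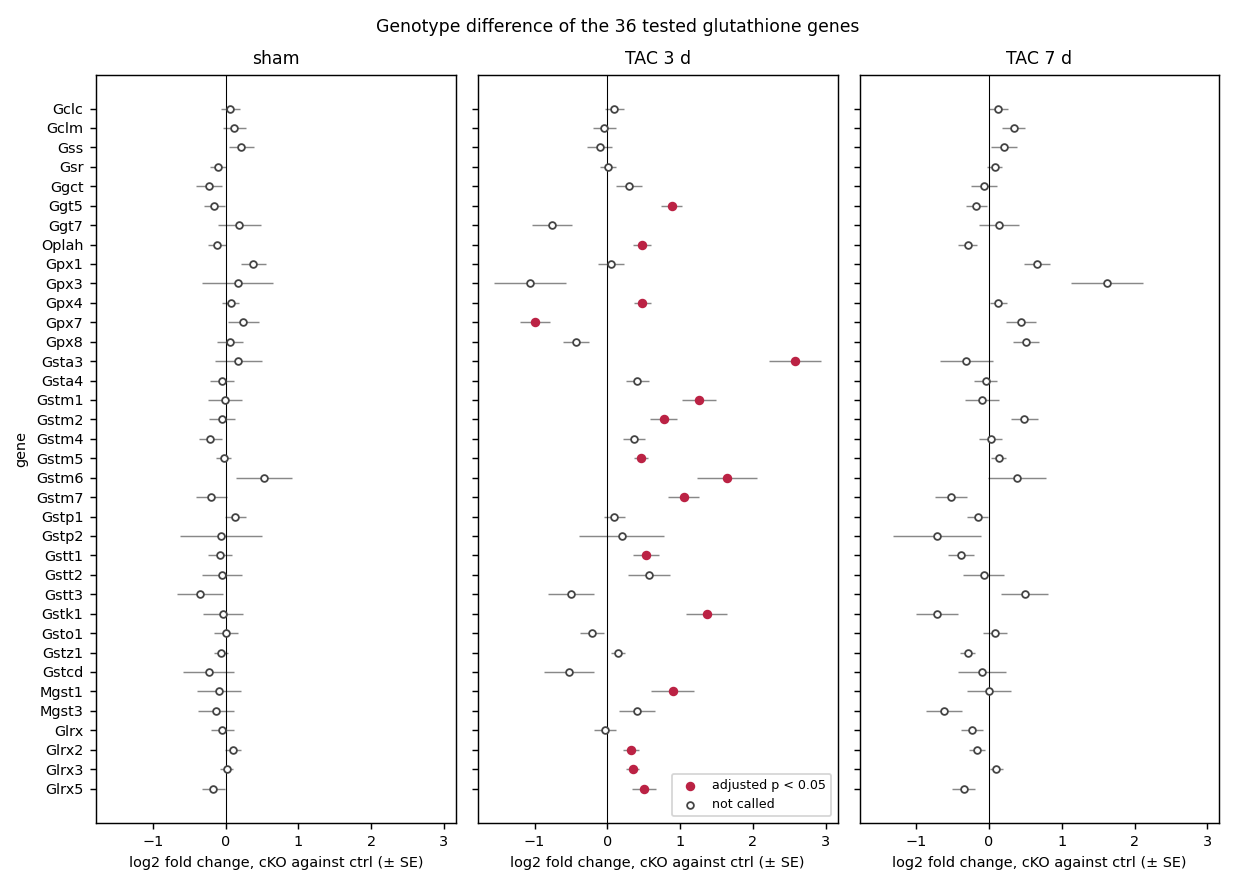
Log2 fold change of cKO against ctrl with its standard error for the 36 tested members, with 1 panel each for sham, TAC 3 d and TAC 7 d (n = 3 per group). Filled points are the 16 members called at TAC 3 d, 15 to the right of 0 and Gpx7 to the left. No member was called in sham or at TAC 7 d.

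The number of calls at TAC 3 d changed with the libraries and the fit. Leaving out 1 library gave 8 called members without ctrl TAC 3 d replicate 1, 9 without ctrl TAC 3 d replicate 3 and 9 without cKO TAC 3 d replicate 2, and 7 members (Ggt5, Gpx7, Gsta3, Gstm1, Gstm5, Gstm7 and Gstk1) were called in each of the 6 such fits. Glrx2 was called in none of the 6, Gstt1, Mgst1 and Glrx5 in 1 of 6 each, and Oplah, Gpx4 and Glrx3 in 3 of 6. With the 3 libraries that stand apart left out, 6 were called, and with a fit to these 2 groups alone 0 were; that fit also filtered and scaled genes anew, and which of these mattered was not tested. Scaled by library size alone, which moved the median of all genes to -0.20, 7 members were higher and 3 lower. In the same comparison 3 of 6 fibroblast markers, 3 of 6 macrophage markers and 3 of 3 proliferation markers were lower in cKO. Of 6 cardiomyocyte markers 0 were called, with a median log2 fold change of 0.51, beside 0.34 over the members. For 5 of the 6 every cKO library lay above every ctrl library, and 3 had an unadjusted edgeR p under 0.05. Macrophage markers summed to 351 to 813 CPM in ctrl TAC 3 d and 276 to 398 CPM in cKO TAC 3 d, proliferation markers to 56.3 to 117 and 2.93 to 14.8 CPM, and cardiomyocyte markers to 34198 to 58291 and 59777 to 67006 CPM. The part of these cell types in the members' values was not tested.

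At TAC 7 d no member was called between the genotypes. Over all tested genes 0.257% were called, 0.116% higher and 0.142% lower, 12 members had an unadjusted p under 0.05, and DESeq2 called 1 member. Library values did not overlap for 7 members that were higher and 7 that were lower, beside 23.8% of all genes. The largest difference was that of Gpx3, with 232, 165 and 149.6 CPM in ctrl TAC 7 d against 400, 937 and 339 CPM in cKO TAC 7 d. The groups did not overlap, but the highest cKO value came from replicate 2, which stands apart, and the difference of 1.62 ± 0.50 had an edgeR adjusted p of 0.137. With the 3 libraries that stand apart left out, Gpx3 differed by 1.02 (edgeR adjusted p = 0.00603) and Gpx1 by 0.54 (edgeR adjusted p = 0.0335), and these were the 2 members then called. Gpx1 stood at 73.9, 63.6 and 64.4 CPM in ctrl and at 99.5, 122 and 96.8 CPM in cKO. Gclc (0.13 ± 0.13), Gclm (0.34 ± 0.15), Gss (0.21 ± 0.17), Gsr (0.08 ± 0.11) and Gpx4 (0.13 ± 0.11) were not called. Fibroblast markers summed to 727 to 1449 CPM in ctrl TAC 7 d and 1513 to 3182 CPM in cKO TAC 7 d, and their part in these values was not tested.

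**Figure D2:**
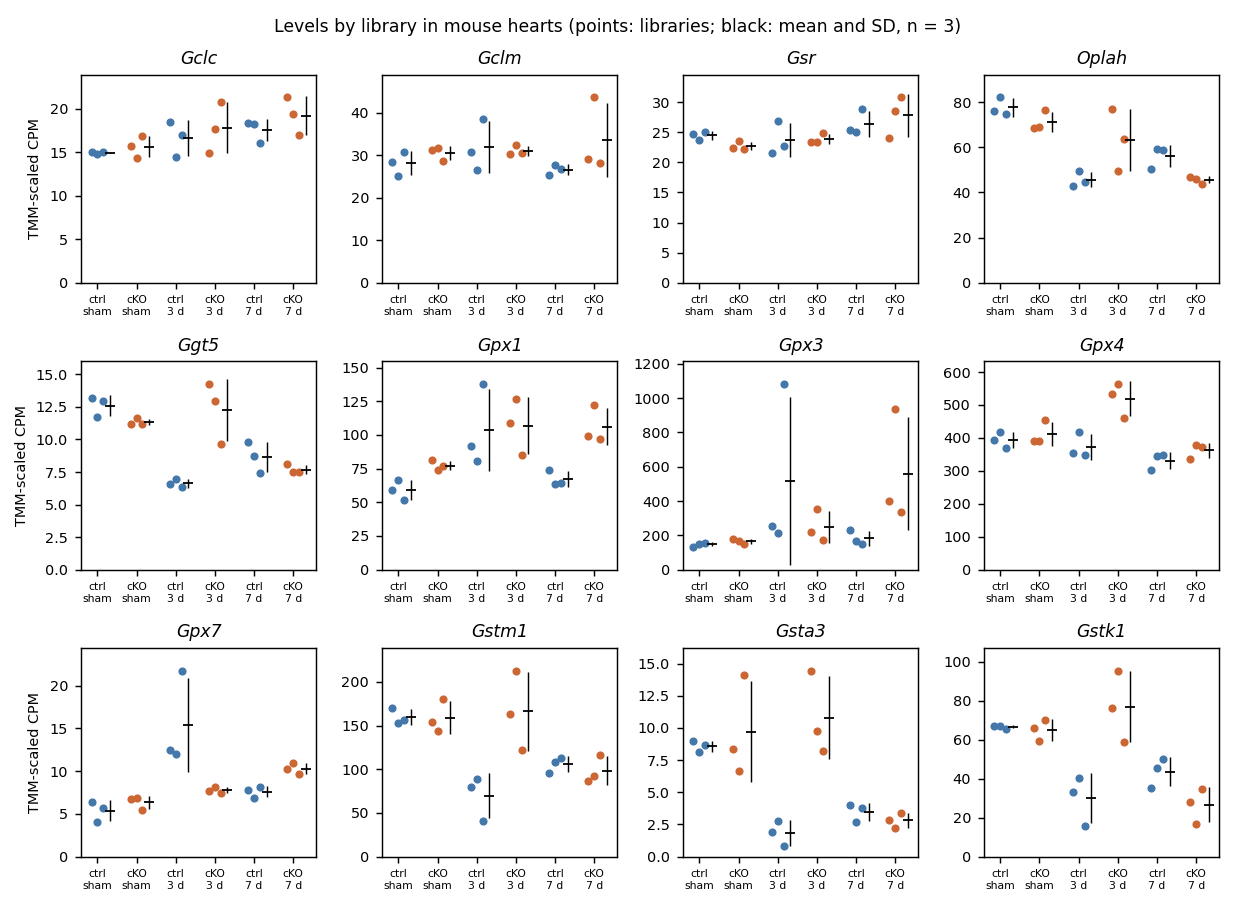
TMM-scaled CPM of 12 members in the 18 mouse hearts, on linear axes from 0, with ctrl libraries in blue and cKO libraries in orange. Points are libraries and black marks the mean and SD of 3. Gstm1, Gstk1, Gsta3 and Ggt5 are low in ctrl TAC 3 d and not in cKO TAC 3 d, while Gclc and Gsr vary little between groups. The Gpx3 means of ctrl TAC 3 d and cKO TAC 7 d are each raised by 1 high library.

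In ctrl hearts after 3 days of TAC, transferases were mostly lower and peroxidases mostly higher. Against ctrl sham, 6 members were higher and 14 lower, 55.6% of the 36 tested, beside 27.2% of all genes (14.8% higher and 12.4% lower). For 6 higher and 17 lower members the groups did not overlap, beside 42.1% of all genes. The median log2 fold change was -0.26 over the members and -0.0014 over all genes. Of the 5 peroxidases 4 rose and none fell, and of the 17 soluble transferases 10 fell and none rose. Gpx7 stood at 6.42, 4.03 and 5.68 CPM in ctrl sham and at 12.5, 12.0 and 21.8 CPM after 3 days (1.52 ± 0.21, n = 3, edgeR adjusted p = 0.000291). Gpx1 rose from 59.1, 66.7 and 51.9 to 91.6, 80.9 and 138 CPM (0.81 ± 0.18), and Gpx8, also of the endoplasmic reticulum, rose by 0.77 ± 0.18. For all 3 the groups did not overlap. Gpx3 rose by 1.82 ± 0.50 (edgeR adjusted p = 0.0142), from 134, 151 and 156 CPM to 256, 214 and 1084 CPM. Without the library at 1084 CPM the Gpx3 change was 0.69, with an edgeR adjusted p of 0.186. Gpx4 was not called at -0.07 ± 0.11.

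The largest fall in ctrl hearts was that of Gsta3, from 8.96, 8.13 and 8.65 CPM in sham to 1.88, 2.78 and 0.813 CPM after 3 days (-2.24 ± 0.36, n = 3, edgeR adjusted p = 0.000608). Gstm1 fell from 170.4, 153 and 157 CPM to 79.5, 88.8 and 40.5 CPM (-1.20 ± 0.23), and Gstk1 from 67.0, 67.2 and 65.6 CPM to 33.4, 40.5 and 15.6 CPM (-1.16 ± 0.28). In each of these genes the lowest library was replicate 3, and the groups did not overlap. Gstm2, Gstm5, Gstm6, Gstm7, Gstt1, Gstt2 and Gstz1 also fell, with log2 fold changes from -0.31 to -1.23. In synthesis and turnover, Gss (0.48 ± 0.17) and Ggt7 (1.11 ± 0.28) rose. Ggct, the cyclotransferase that forms oxoproline (-0.56 ± 0.18), Ggt5 (-0.93 ± 0.14) and Oplah (-0.77 ± 0.12) fell. Oplah stood at 75.9, 82.3 and 74.7 CPM in sham and at 43.0, 49.4 and 44.4 CPM after 3 days. Gclc (0.16 ± 0.13), Gclm (0.18 ± 0.15) and Gsr (-0.04 ± 0.11) were not called, and of the 4 glutaredoxins Glrx3 alone was, at -0.25 ± 0.09. Without ctrl TAC 3 d replicate 3, Gss stood at 0.23 and Ggt7 at 0.80, and neither was called (edgeR adjusted p = 0.315 and 0.0613). Further, the calls of Ggct, Gstm6 and Gstz1 stood in 3 of the 6 fits that left out 1 library, those of Gss and Gstm2 in 2 and that of Glrx3 in 1. Leaving out ctrl TAC 3 d replicate 3 left 12 called members, and a fit to the 2 groups alone 13, and scaling by library size alone left 6 higher and 8 lower. All 6 macrophage markers, 4 of 6 fibroblast markers and 3 of 3 proliferation markers rose in the same comparison and 1 of 6 cardiomyocyte markers was called lower. The cardiomyocyte markers had a median log2 fold change of -0.54. For 5 of the 6 every ctrl TAC 3 d library lay below every ctrl sham library, and for 1 above. They summed to 61949 to 69118 CPM in ctrl sham and 34198 to 58291 CPM in ctrl TAC 3 d. The part of all these markers in the members' values was not tested.

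After 7 days of TAC, 5 members were lower in ctrl hearts than in ctrl sham and none higher, 13.9% of those tested, beside 7.29% of all genes (4.26% higher and 3.03% lower). The groups did not overlap for 3 higher and 15 lower members, beside 35.8% of all genes. The called members were Ggt5 (-0.54 ± 0.14), Oplah (-0.47 ± 0.12), Gsta3 (-1.30 ± 0.34), Gstm5 (-0.44 ± 0.10) and Gstt1 (-0.87 ± 0.17). Gstt1 stood at 15.2, 11.7 and 14.5 CPM in sham and at 8.24, 7.25 and 7.07 CPM after 7 days, with no overlap (edgeR adjusted p = 0.0105). Gsta3 stood at 4.01, 2.68 and 3.76 CPM at 7 days, also below every sham library. Ggt5, Oplah and Gsta3 were called in 0 of the 6 fits that left out 1 library. Their edgeR adjusted p there reached 0.124, 0.141 and 0.122. Gstm5 was called in 4 of these fits and Gstt1 in 5. The count moved with the libraries and the fit. It was 0 without ctrl sham replicate 1, 1 without ctrl TAC 7 d replicate 1 and 2 without each of the other 4 libraries, 12 with the 2 groups fitted alone, 12 with the 3 libraries that stand apart left out, and 2 under scaling by library size alone. Gclc (0.23 ± 0.13), Gclm (-0.08 ± 0.16), Gss (0.20 ± 0.18), Gsr (0.11 ± 0.11), Gpx1 (0.18 ± 0.18), Gpx3 (0.31 ± 0.49) and Gpx4 (-0.25 ± 0.12) were not called. In the same comparison 3 of 3 proliferation, 2 of 6 macrophage and 1 of 6 fibroblast markers rose. Of 6 cardiomyocyte markers 0 were called, with a median log2 fold change of -0.15. The part of all these markers was not tested.

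In cKO hearts no member was called after 3 days of TAC. Over all genes 0% were called. Library values did not overlap for 6 higher members and 0 lower, beside 16.1% of all genes. Further, 5 members had an unadjusted p under 0.05, and DESeq2 called 0 members. Gsta3 stood at 8.35, 6.64 and 14.1 CPM in cKO sham and 14.5, 9.76 and 8.21 CPM in cKO TAC 3 d, and Gstm1 at 154, 143 and 179.9 CPM and 164, 213 and 122 CPM. The groups overlapped in both genes. Gclc (0.19 ± 0.13), Gclm (0.02 ± 0.15), Gss (0.16 ± 0.17), Gsr (0.07 ± 0.11), Gpx1 (0.47 ± 0.18), Gpx3 (0.59 ± 0.49) and Gpx4 (0.33 ± 0.12) were not called.

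After 7 days of TAC, cKO hearts had 2 members higher and 11 lower than cKO sham, 36.1% of those tested, beside 21.8% of all genes (11.4% higher and 10.4% lower). For 9 higher and 17 lower members the libraries of the groups did not overlap, beside 43.7% of all genes. Gpx3 rose from 179, 167 and 148 CPM to 400, 937 and 339 CPM (1.76 ± 0.50, n = 3, edgeR adjusted p = 0.0215), and Gpx7 rose by 0.69 ± 0.21. Without cKO TAC 7 d replicate 2 the Gpx3 change was 1.15, with an edgeR adjusted p of 0.137, and it was also not called without cKO sham replicate 1, 2 or 3 (edgeR adjusted p from 0.0561 to 0.0756). Gstk1 fell from 65.9, 59.1 and 70.0 CPM to 28.1, 16.8 and 34.6 CPM (-1.29 ± 0.28, edgeR adjusted p = 0.00681). Gsta3 fell from 8.35, 6.64 and 14.1 CPM to 2.86, 2.22 and 3.35 CPM (-1.79 ± 0.35), and Gstm7 from 28.9, 32.6 and 34.3 CPM to 15.04, 13.36 and 20.996 CPM (-0.96 ± 0.22). No cKO library at 7 days reached the cKO sham values of these 3 genes. Gstm1, Gstp1, Gstt1, Gstt2, Gstz1, Ggt5, Oplah and Glrx2 also fell, with log2 fold changes from -0.45 to -1.18. Gclc (0.30 ± 0.13), Gclm (0.14 ± 0.15), Gss (0.19 ± 0.17), Gsr (0.29 ± 0.11), Gpx1 (0.46 ± 0.18) and Gpx4 (-0.19 ± 0.11) were not called. Gpx7 and Gstm1 were each called in 1 of the 6 fits that left out 1 library, that without cKO TAC 7 d replicate 3, and Gstt2 in 2 of 6, with edgeR adjusted p up to 0.109, 0.136 and 0.197. Gstp1 was not called without cKO TAC 7 d replicate 2. Without that library 8 members were called, and scaling by library size alone gave 4 higher and 9 lower. All 6 macrophage, 4 of 6 fibroblast and 3 of 3 proliferation markers rose in this comparison. Of 6 cardiomyocyte markers 1 was called lower, with a median log2 fold change of -0.35 over the 6. They summed to 56980 to 63824 CPM in cKO sham and 42673 to 54434 CPM in cKO TAC 7 d. The part of all these markers was not tested.

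**Figure D3:**
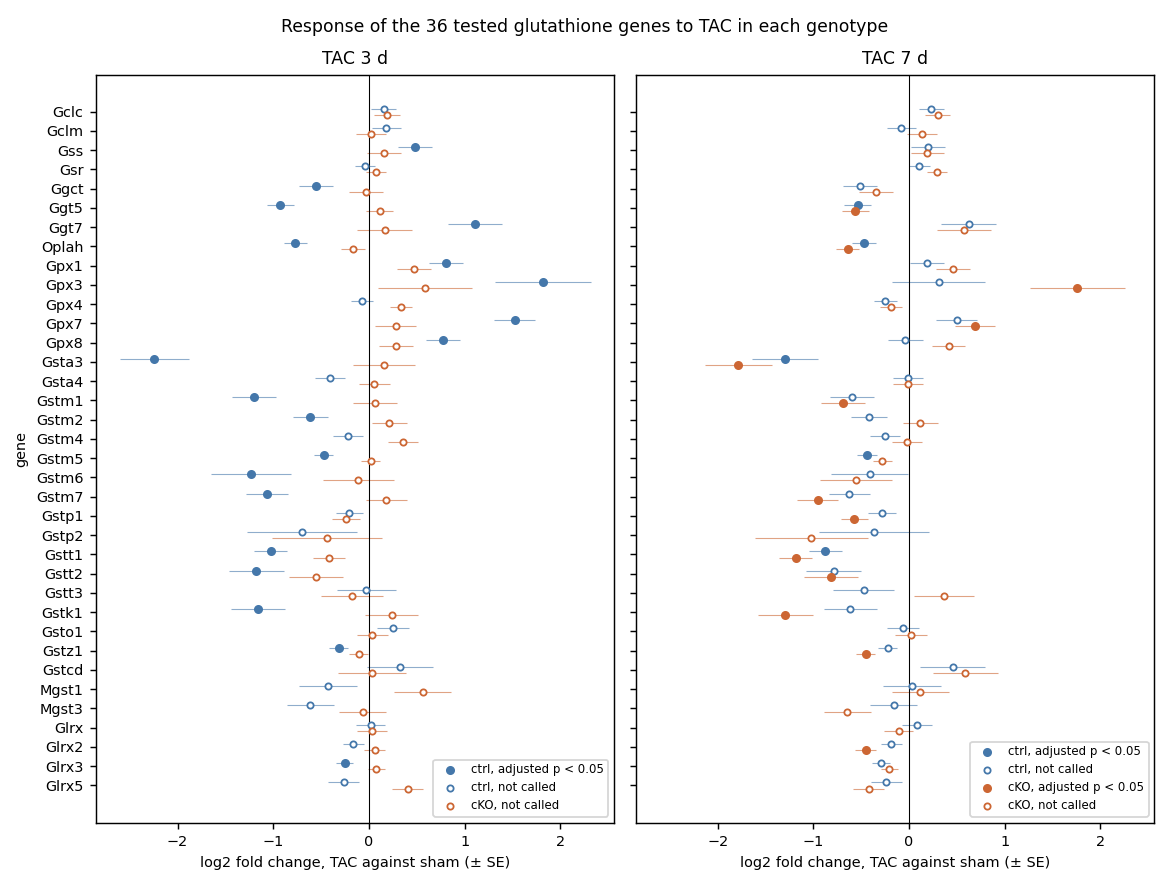
Log2 fold change of TAC against sham with its standard error for the 36 tested members, at 3 and at 7 days, in ctrl hearts (blue) and cKO hearts (orange), n = 3 per group. Filled points were called. At 3 days all 20 called points are from ctrl hearts, 14 of them left of 0, and at 7 days 5 are from ctrl and 13 from cKO hearts.

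In the mouse comparisons together, 11 members were called in none: Gclc, Gclm, Gsr, Gsta4, Gstm4, Gstp2, Gstt3, Gsto1, Gstcd, Mgst3 and Glrx.

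The heart comparisons share groups: both TAC comparisons of a genotype use the same sham libraries, and ctrl TAC 3 d enters the comparison with ctrl sham as well as that with cKO. Whether the genotypes differed in their response was tested by the interaction of genotype and TAC. At 3 days 2 members were called, 5.56% of those tested, beside 0.669% of all genes (0.18% higher and 0.489% lower). Ggt5 responded to TAC by -0.93 ± 0.14 in ctrl and 0.11 ± 0.14 in cKO, a difference of 1.04 ± 0.20 (edgeR adjusted p = 0.0425). Gsta3 responded by -2.24 ± 0.36 in ctrl and 0.16 ± 0.32 in cKO, a difference of 2.40 ± 0.48 (edgeR adjusted p = 0.0478). The other 34 members were not called, among them Gstm1 (1.26 ± 0.33) and Gstk1 (1.40 ± 0.40), which are named here after their values were seen. In all, 16 members had an unadjusted p under 0.05. The 2 calls were lost in 9 of the 12 fits that left out 1 library, with the 3 libraries that stand apart left out, and in a fit to the 4 groups alone. Scaling by library size alone gave 1 higher and 1 lower and kept 1 of the 2 calls. In the same test 2 of 3 proliferation markers were lower, with a median of -3.37 over the 3, and 5 of 6 macrophage and 3 of 6 fibroblast markers had an unadjusted p under 0.05, with medians of -0.87 and -1.80. Of 6 cardiomyocyte markers 0 were called and 3 had an unadjusted p under 0.05, with a median of 0.64, beside 0.37 over the members. The part of all these markers in the members' values was not tested. At 7 days 0 members were called, 0 had an unadjusted p under 0.05, and 0% of all genes were called. DESeq2 gave 8 and 0 called members at 3 and 7 days.

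In rat myocytes with adATF4, both subunits of the ligase and the reductase were higher, and 8 of 13 soluble transferases and 3 of 5 peroxidases were lower. Of 6 tested genes of synthesis, reduction and turnover 3 were higher and 1 lower, and Gss was not called. Atf4 stood at 247 to 309 FPKM with adGFP and at 2473 to 2728 FPKM with adATF4. The values were tested with limma on log2(FPKM + 1), a scale that understates the change of low genes. Of the 31 tested members 6 were higher and 15 lower, 67.7%, beside 50.6% of all genes (24.2% higher and 26.4% lower), so a call is common in this comparison. The median log2 fold change was -0.59 over the members and -0.04 over all genes. Library values of the groups did not overlap for 6 members that were higher and 15 that were lower, beside 58.3% of all genes. In leave-one-library-out fits 18 to 21 members were called.

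Gclc stood at 19.4, 20.4 and 22.9 FPKM with adGFP and at 49.9, 46.8 and 56.0 FPKM with adATF4 (log2 fold change 1.25 ± 0.11, n = 3, limma adjusted p = 1.22e-05). Gclm stood at 26.4, 24.0 and 25.0 FPKM and at 35.1, 33.0 and 41.5 FPKM (0.52 ± 0.12, limma adjusted p = 0.00391), and Gsr at 33.7, 35.1 and 29.9 FPKM and at 43.0, 51.8 and 48.0 FPKM (0.52 ± 0.11, limma adjusted p = 0.00295). Each adATF4 library was above each adGFP library for the 3 genes, which encode both subunits of the ligase and the reductase. Gss, the next enzyme after the ligase, was not called at -0.24 ± 0.15. Oplah fell from 10.78, 10.05 and 8.60 FPKM to 1.96, 3.55 and 2.86 FPKM (-1.53 ± 0.19, limma adjusted p = 0.000102).

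All 5 peroxidases were measured and 3 were lower with adATF4. Gpx7 stood at 57.5, 43.2 and 39.8 FPKM with adGFP and at 23.1, 25.2 and 21.1 FPKM with adATF4 (-0.97 ± 0.14, n = 3, limma adjusted p = 0.000302). Gpx4 stood at 414, 314 and 227 FPKM and at 185, 218 and 181 FPKM (-0.67 ± 0.18, limma adjusted p = 0.0111), and the highest adATF4 library lay just below the lowest adGFP library. Gpx3 was lower by -0.72 ± 0.14. Gpx1 was not called at -0.17 ± 0.17.

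Of 13 tested soluble transferases 8 were lower and 1 higher. Gstm2 stood at 511, 515 and 559 FPKM with adGFP and at 292, 314 and 306 FPKM with adATF4 (-0.79 ± 0.08, n = 3, limma adjusted p = 2.96e-05), and Gstm1 at 49.6, 61.5 and 55.0 FPKM and at 22.7, 28.0 and 28.3 FPKM (-1.05 ± 0.12). Gsta4, which conjugates the lipid aldehyde 4-hydroxynonenal, stood at 209, 189.7 and 191 FPKM and at 121, 123 and 122 FPKM (-0.68 ± 0.08, limma adjusted p = 7.38e-05). The values of each group stayed close together in these genes. Gstt2 (-1.45 ± 0.15), Gstt1 (-1.20 ± 0.34), Gstk1 (-1.19 ± 0.15), Gstm7 (-0.83 ± 0.14) and Gstm6 (-0.59 ± 0.22) were lower as well, with Gstt1 at 0.148 to 3.33 FPKM and Gstm6 at 1.05 to 3.19 FPKM over the 6 libraries. The Gstm6 call was lost in 8 of 10 alternatives, among them the pseudocount of 0.1 and the fits without adGFP replicate 2 or 3 or any adATF4 library (limma adjusted p up to 0.157), and the Gstt1 call without adATF4 replicate 1 or 3. The 1 higher transferase was Gstz1, an isomerase of tyrosine breakdown, at 19.4, 22.8 and 17.5 FPKM and at 31.3, 35.3 and 33.9 FPKM (0.73 ± 0.12). The membrane-bound Mgst1 (-0.62 ± 0.12) and Mgst3 (-0.65 ± 0.19) were lower, and the groups of Mgst3 overlapped and its call was lost without adGFP replicate 2 or adATF4 replicate 1. Among glutaredoxins, Glrx3 stood at 161, 129 and 142 FPKM with adGFP and at 307, 282 and 323 FPKM with adATF4 (1.08 ± 0.10, limma adjusted p = 1.6e-05), Glrx5 was higher by 0.52 ± 0.14, and Glrx was lower by -1.07 ± 0.19.

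**Figure D4:**
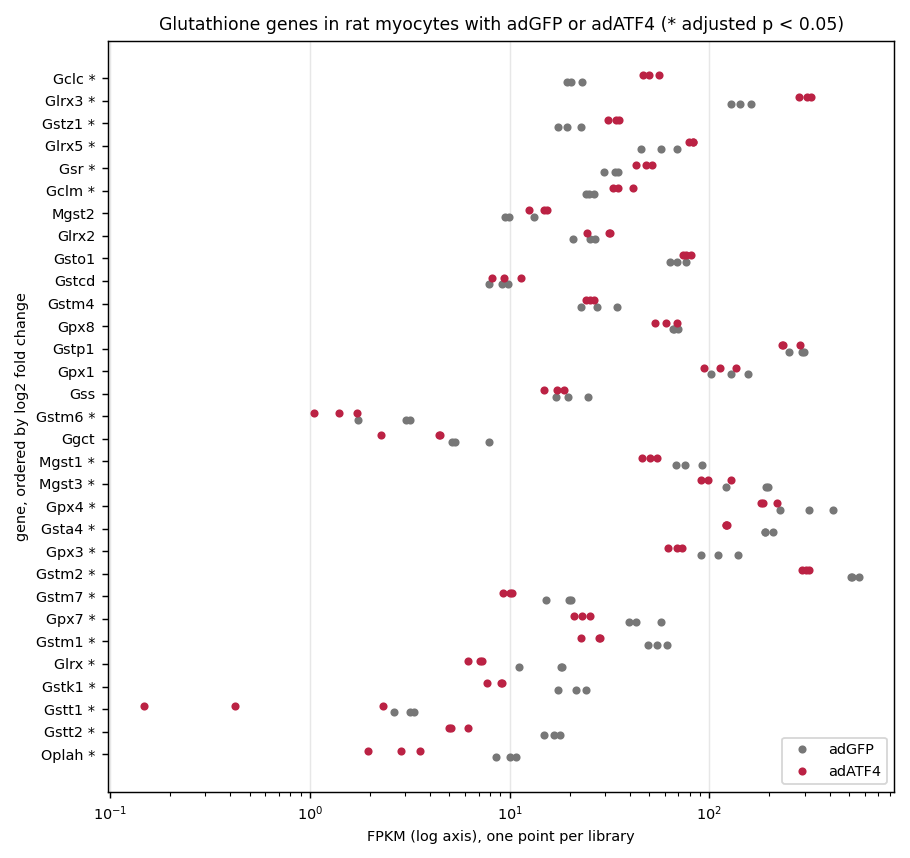
FPKM per library on a log axis for the 31 tested members in rat myocytes with adGFP (grey) or adATF4 (red), n = 3 each, ordered by log2 fold change. A star marks the 21 called members, 6 of them in the upper rows led by Gclc and Glrx3 and 15 in the lower rows down to Oplah.

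Most tested markers of fibroblasts, macrophages, endothelial cells and smooth muscle or pericytes moved in the same direction as the lower members in these cultures. Fibroblast markers summed to 799 to 838 FPKM with adGFP and to 301 to 304 FPKM with adATF4, and all 5 tested were lower. Macrophage markers summed to 139.8 to 158 and 77.0 to 87.1 FPKM, with 3 of 5 tested lower, and endothelial markers to 20.9 to 29.4 and 10.3 to 12.4 FPKM, with 4 of 5 lower. Of 4 smooth muscle and pericyte markers 3 were lower, with sums of 193.8 to 258 and 191 to 202 FPKM. Cardiomyocyte markers summed to 19929 to 22048 and 19020 to 19341 FPKM, with 1 of 6 higher and 3 lower. Their part in the members' values was not tested.

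Across the 2 systems the values of Gclc, Gstm1 and Glrx3 stood side by side as follows, with no test of one against the other. No rule set beforehand picked these genes, and the other members were not set side by side. Mouse and rat genes were matched by symbol alone, and whether each pair is the same gene in both species was not checked. Gclc was 1.25 ± 0.11 with adATF4 in rat cells and 0.06 ± 0.13, 0.10 ± 0.13 and 0.13 ± 0.13 in cKO against ctrl hearts, in the order sham, 3 d, 7 d. Gstm1 was -1.05 ± 0.12 in rat cells and -0.01 ± 0.23, 1.26 ± 0.23 and -0.10 ± 0.23 in the hearts. Glrx3 was 1.08 ± 0.10 in rat cells and 0.02 ± 0.09, 0.35 ± 0.09 and 0.10 ± 0.09 in the hearts.

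The other genes of the pathway were read from a list of 42 genes. It covers glutathione breakdown, transport, cysteine supply and selenoprotein synthesis, and also holds further peroxidases, transferases and other enzymes that use glutathione. In rat myocytes 11 of 32 tested were higher and 8 lower, 59.4%, beside 50.6% of all genes (24.2% higher and 26.4% lower). Cth and Chac1 had the largest values. Cth, which makes cysteine from cystathionine, stood at 3.19, 2.58 and 3.80 FPKM with adGFP and at 154, 131 and 137 FPKM with adATF4 (5.09 ± 0.13, n = 3, limma adjusted p = 4.6e-09). Chac1, which cleaves glutathione in the cytosol, stood at 7.90, 4.63 and 5.49 FPKM and at 138, 142 and 125 FPKM (4.30 ± 0.16). All adATF4 libraries lay far above the adGFP libraries in both genes. The cystine transporter Slc7a11 (2.11 ± 0.15), its partner Slc3a2 (1.91 ± 0.10), the surface hydrolase Ggt1 (2.16 ± 0.22), the cysteine dioxygenase Cdo1 (2.71 ± 0.14) and the selenocysteine synthase Sepsecs (1.92 ± 0.17) were higher too. Pstk, an earlier step of selenocysteine synthesis, was lower by -1.33 ± 0.25, and the dipeptidase Dpep1 by -1.86 ± 0.21.

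In hearts, for cKO against ctrl, 0 of 30 tested genes of the list were called in sham beside 0.0193% of all genes, 3 (10.0%) at TAC 3 d beside 17.1%, and 0 at TAC 7 d beside 0.257%. At TAC 3 d Dpep1, which splits the cysteinyl-glycine left after glutathione cleavage, was higher (1.53 ± 0.31), as was Sephs2 (0.59 ± 0.14), which makes selenophosphate. Dpep1 stood at 19.9, 19.1 and 21.4 CPM in ctrl and at 48.1, 90.1 and 36.5 CPM in cKO, and the highest library is one that stands apart. Hpgds, a sigma-class transferase of immune cells, was lower (-1.52 ± 0.38). After TAC in ctrl, 2 of the 30 were higher and 3 lower at 3 d, 16.7% beside 27.2% of all genes, and 0 were higher and 1 lower at 7 d, 3.33% beside 7.29%. In cKO none was called at 3 d, beside 0%, and 2 were higher and 5 lower at 7 d, 23.3% beside 21.8%. These shares are near or below those of all genes. Slc7a11 stayed at 0 to 0.430 CPM in the 18 hearts. Chac1 stood at 3.97 to 6.75 CPM in ctrl sham and at 3.05 to 6.13 CPM in cKO sham.

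To show the sequence around the start of such genes, mouse promoters of RefSeq (GRCm38.p6, 250 bases before to 50 after a start site) were read for the members and the list. They were found for 31 of the 37 members, with 47 windows in all, and for 37 genes of the list. Both strands were searched for the ATF4-C/EBP composite element, TGATGNAA, and for the core of the antioxidant response element bound by NRF2, TGACNNNGC, and the motifs did not overlap in any window. The composite element was found in 0 of the 31 members' promoters and in 3 genes of the list, Chac1, Slc7a11 and Lancl1, beside 3.97% of all 32851 promoters. The antioxidant core was found in 6 of the 47 windows, of Gclm, Ggct, Gsta3, Gstm5, Gstm7 and Mgst1, beside 12.4% of all promoters. A match is a run of letters and not a measured binding site, and the windows are from mouse, whereas the adATF4 values are from rat. The 250 bases before the start are given for 4 genes, in the direction of transcription and with the motif in capitals. Gclm and Gsta3 are examples from the 6 members with the antioxidant core and do not stand for the others. Chac1 and Slc7a11 are the 2 of the 3 list genes with the composite element that were higher with adATF4, and were chosen for that.
Gclm, plus strand, chr3:122245307-122245556: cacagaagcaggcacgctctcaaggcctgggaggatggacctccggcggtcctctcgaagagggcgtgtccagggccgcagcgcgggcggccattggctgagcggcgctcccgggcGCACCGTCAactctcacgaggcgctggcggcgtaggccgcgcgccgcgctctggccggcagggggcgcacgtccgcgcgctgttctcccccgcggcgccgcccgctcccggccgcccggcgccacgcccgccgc
Gsta3, plus strand, chr1:21240335-21240584: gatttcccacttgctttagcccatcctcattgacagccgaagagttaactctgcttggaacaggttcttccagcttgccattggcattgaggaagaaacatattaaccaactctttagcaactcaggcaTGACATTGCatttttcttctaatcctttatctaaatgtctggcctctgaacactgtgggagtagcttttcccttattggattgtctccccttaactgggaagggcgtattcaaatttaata
Chac1, plus strand, chr2:119350992-119351241: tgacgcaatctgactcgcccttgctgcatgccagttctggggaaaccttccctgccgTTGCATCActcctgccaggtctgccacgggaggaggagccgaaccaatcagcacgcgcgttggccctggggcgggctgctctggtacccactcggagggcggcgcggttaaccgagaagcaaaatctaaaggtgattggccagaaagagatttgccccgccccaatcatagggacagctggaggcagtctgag
Slc7a11, minus strand, chr3:50443614-50443863: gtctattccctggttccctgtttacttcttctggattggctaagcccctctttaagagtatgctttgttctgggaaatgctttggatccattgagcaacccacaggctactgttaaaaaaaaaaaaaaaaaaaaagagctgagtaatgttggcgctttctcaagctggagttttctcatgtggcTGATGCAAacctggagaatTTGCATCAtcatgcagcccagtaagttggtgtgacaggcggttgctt
In Gclm the core begins 134 bases before the start and in Gsta3 121 bases before it. In Chac1 the composite element begins 193 bases before the start, and Slc7a11 holds it on both strands, beginning 66 and 47 bases before the start. Gclm was higher with adATF4 in rat cells and not called in cKO hearts. Of the other members with the core, Gstm7 (-0.83) and Mgst1 (-0.62) were lower with adATF4. Ggct was not called there, and Gsta3 and Gstm5 were not tested in rat. Gsta3 was the member with the widest difference between cKO and ctrl at TAC 3 d and lay below 1 FPKM in the rat cells. Lancl1, the third list gene with the composite element, stood at 28.4 to 32.1 FPKM with adGFP and at 21.6 to 28.8 FPKM with adATF4. Cth, Cdo1, Ggt1, Slc3a2 and Sepsecs, all higher with adATF4, are not among the list genes found with the element, though not every list gene had a promoter entry.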

How the data were processed

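For the mouse hearts the authors deposited raw read counts per Ensembl gene, per the file headers, and for the rat cells FPKM values that the authors had normalised. Per the submitters' processing notes Bowtie 0.12.2 and the build mm9 were used, with no role given. Sources used here do not name the counting tool, its strand setting or the annotation. A further 6 per-sample columns matched no sample and were not used, and 26 rat gene names had been turned into dates and were dropped. The members and gene lists were chosen with earlier results of these data known.

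Mouse counts were fitted with edgeR 4.0.16 in R 4.3.3 (filterByExpr, TMM, quasi-likelihood test, 1 model of 6 groups and 18 libraries, 15535 genes holding 99.9% of counts). Levels are TMM-scaled CPM of single libraries. Rat values were fitted with limma 3.58.1 (trend) on log2(FPKM + 1) for genes reaching 1 FPKM in 3 or more libraries. P-values were adjusted over all genes of a comparison, and a gene was called at an adjusted p under 0.05. Both fits were also run on simulated data drawn with the fitted spread of these data and with no library that stands apart. That run cannot show how far such a library moves the calls. Every called member may be named, and Gclc, Gclm, Gss, Gsr, Gpx1, Gpx3 and Gpx4 are always given, with the 4 members of highest level and the called genes of the pathway list, the largest of them in rat. Alternatives were DESeq2 1.42.0, other scalings and filters, a replicate block, a fit to the groups compared alone, and leaving out single libraries or the 3 that stand apart. Rat library totals are unknown, so no counting interval is given.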

Additional observations from a re-analysis of the deposited data

Results flagged for a closer look

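In the direct test of the difference between cKO and ctrl hearts in the response to 3 days of TAC, 2 members were called. They are 5.56% of the 36 tested, beside 0.669% of all genes. Both calls held in 3 of the 12 fits that left out 1 library. Neither held in the fit to the 4 groups alone or with the 3 libraries that stand apart left out. For Ggt5 the response in cKO minus that in ctrl was 1.04 on the log2 scale (edgeR adjusted p = 0.0425). For Gsta3 it was 2.40 (edgeR adjusted p = 0.0478). In both genes every ctrl TAC 3 d library lay below every ctrl sham library, and the cKO TAC 3 d and cKO sham libraries overlapped.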

How the results depend on the processing

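The count of called members in cKO against ctrl at TAC 3 d, 16, was 10 under scaling by library size alone, 0 with the 2 groups fitted alone and 6 with the 3 libraries that stand apart left out. In cKO against ctrl at TAC 7 d the count of 0 became 6 with no filter on low counts, 1 with DESeq2 and 2 without those 3 libraries. For TAC 3 d in ctrl, 20 became 13 with the groups alone. For TAC 7 d in ctrl, 5 became 2 under library sizes alone, 12 with the groups alone and 12 without the 3 libraries. For the interaction at 3 d, 2 became 11 with no filter, 8 with DESeq2, 0 with the groups alone and 0 without the 3 libraries, and for the interaction at 7 d, 0 became 1 with no filter. The causes were not tested. Leaving out single libraries gave 8 to 18 called in cKO against ctrl at TAC 3 d, 12 to 23 for TAC 3 d in ctrl, 0 to 2 for TAC 7 d in ctrl, 8 to 15 for TAC 7 d in cKO, 0 to 9 for the interaction at 3 d and 18 to 21 in rat cells, and 0 to 0 in the other 4 comparisons. Across all alternatives, single called members kept direction and call in 744 fits and lost the call in 206, and no direction reversed. Library sizes alone moved the median of all genes to 0.23 for TAC 3 d in ctrl, 0.14 for TAC 7 d in cKO, 0.10 for cKO against ctrl at TAC 7 d and -0.25 for the interaction at 3 d.

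Whether the replicate numbers pair the samples could not be settled. Deviations of same-numbered libraries correlated from -0.16 to 0.22, and with 3 libraries a group such values neither show nor exclude a pairing. The highest was that of replicate 3 in the rat cells, where replicate 1 had -0.06 and replicate 2 had 0.14. With the replicate block, 15 members were called in cKO against ctrl at TAC 3 d, 18 for TAC 3 d in ctrl, 5 for TAC 7 d in ctrl, 12 for TAC 7 d in cKO, 2 for the interaction at 3 d, 21 in rat cells and 0 elsewhere. Rescaling rat libraries to the same sum, an alternative added after the data were seen, also gave 21.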
